A study of Mus musculus with 2 samples.

Results

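The insulin-like growth factor system of the sorted Myf5-lineage cells was followed through 8 genes: Igf1, which encodes the ligand IGF-I, Igf1r, which encodes its receptor, and Igfbp2, Igfbp3, Igfbp4, Igfbp5, Igfbp6 and Igfbp7, which encode 6 secreted binding proteins. They were taken by symbol from the 32285 genes of the count table, by a rule that uses no measured value. The study asked how loss of SRSF2, an SR protein of pre-mRNA splicing, alters the fate of cells that have expressed Myf5. Trunks and limbs of E14 mouse embryos were dissociated, and tdT+ cells were sorted for 10x Genomics 3' single-cell RNA sequencing. The series holds 1 library titled SRSF2f/f/Myf5-Cre/tdT (MKO/tdT), in which both Srsf2 alleles are floxed, and 1 titled SRSF2f/w/Myf5-Cre/tdT (Het/tdT), from controls in which 1 allele is floxed. Both carry Cre driven by Myf5 and a Rosa26-LSL-tdTomato reporter that Cre switches on, so that the sort kept every descendant of a cell with Cre activity and not only muscle cells. The number of embryos behind each library is not given in the sources used here.

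IGF-I binds a receptor tyrosine kinase at the cell surface, which signals through insulin receptor substrates to the PI3K, Akt and mTOR pathway and promotes growth, survival and, in muscle, differentiation. The binding proteins hold IGFs in the extracellular space and can either block or prolong their action, and proteases such as those of the pappalysin family release the ligand again. IGF-I is made both in the liver and locally, in connective tissue and in macrophages.

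The filters kept 12523 of 15268 barcodes in the library labelled MKO/tdT and 10345 of 12498 in the library labelled Het/tdT, with a median of 10751 and 9480 UMIs (unique molecular identifiers, each counting 1 captured mRNA molecule) per cell. Levels are given as UMIs summed over cells, in CPM, the UMIs of a gene for each 1000000 UMIs of the same cells. With 1 library per genotype there is no replicate error and no test between genotypes, and the exact 95% intervals below cover counting error only. The targeted gene goes against the titles. Srsf2 was measured at 219 CPM in the library labelled MKO/tdT and at 153 CPM in the library labelled Het/tdT, although floxed alleles can still give 3' UMIs after recombination. Cells with myogenic markers made up 14.0% (1750 cells) of the library labelled MKO/tdT and 0.880% (91 cells) of the library labelled Het/tdT. The study's own material gives both assignments, since its numbers of retained cells run with the titles, whereas its account of the myogenic share and the names of the run summaries run against them. Each ratio below is therefore written for the labels, as MKO/tdT over Het/tdT, and would change its sign if the titles were crossed.

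The 8 genes lie at 7 separate places of GRCm38 (GENCODE annotation), and all are protein coding. Igf1 is at chr10:87858265-87937042 (+), Igf1r at chr7:67952827-68233668 (+), Igfbp3 at chr11:7206086-7213923 (−), Igfbp4 at chr11:99041244-99054392 (+), Igfbp6 at chr15:102144362-102149511 (+) and Igfbp7 at chr5:77349240-77408041 (−). Igfbp2, at chr1:72824503-72852474 (+), and Igfbp5, at chr1:72857932-72874884 (−), face each other tail to tail across 5457 bases. The genes that overlap a member lie on the opposite strand, and the counting was strand-aware. Among these, Igf1os over Igf1 had 10 UMIs in all kept cells and Polr2b over Igfbp7 had 10900.

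The 120 bases before the start site, from RefSeq promoters of GRCm38.p6, are shown for the ligand, its receptor and the neighbours Igfbp2 and Igfbp5. Capitals mark matches to GGGCGG on either strand (the GC box) or to TATAAA on the gene's strand.
Igf1, chr10:87860991-87861110 (+): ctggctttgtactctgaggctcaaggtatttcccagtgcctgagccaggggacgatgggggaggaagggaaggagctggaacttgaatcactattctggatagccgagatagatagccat
Igf1r, chr7:67952137-67952256 (+): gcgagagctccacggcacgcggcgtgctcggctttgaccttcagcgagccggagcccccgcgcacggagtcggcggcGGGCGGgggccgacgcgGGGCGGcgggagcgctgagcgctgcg
Igfbp2, chr1:72824360-72824479 (+): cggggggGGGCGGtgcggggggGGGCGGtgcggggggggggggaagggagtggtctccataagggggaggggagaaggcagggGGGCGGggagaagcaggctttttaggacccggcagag
Igfbp5, chr1:72874866-72874985 (−): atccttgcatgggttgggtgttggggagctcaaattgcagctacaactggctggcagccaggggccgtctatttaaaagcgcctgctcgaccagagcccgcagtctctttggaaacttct
Over the 250 bases before the start, Igf1r held 2 GC boxes at a GC content of 77.6%, and Igf1 held none at 52.8%, against a median of 52.4% over 32851 promoters. The Igf1 start used lies inside the annotated gene, downstream of its first base at chr10:87858265, so these values do not describe the gene's outermost start. Igfbp2 held 3 GC boxes (67.2% GC) at the start shown and none (56.4% GC) at a second one, Igfbp5 held none (58.8% GC) and Igfbp7 held 4 (74.0% GC), and 32.7% of all promoters held at least 1. Among the members, Igfbp4 alone had a TATAAA match, which starts 28 bases before the start site, and 7.59% of all promoters had one.

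To place the members among cell types, cells were assigned by marker UMIs, with at least 3 UMIs of a list, from at least 2 of its genes, and at least 3 times the UMIs of any other list. Of the 13 lists, 11 gave a class, named "-like" after its list, of at least 50 cells in both libraries. In each class its own list was the highest of the 13, at 8.04 to 53.7 times the next. The assignment rule fixes a lead of at least 3 times, so this is no check of the classes. The classes ranged from fibroblast-like cells (3427 and 1817 cells in the libraries labelled MKO/tdT and Het/tdT) and chondrocyte-like cells (2374 and 2533) to macrophage-like cells (51 and 82) and erythroid-like cells (53 and 59). A further 6617 cells stayed unassigned, and 2567 of these had more than 1 list at the limit of 3 UMIs from 2 genes. Mast-like cells (33 and 287) and neural progenitor-like cells (7 and 11) did not reach that number in both libraries, and the orders below are over the 11 classes. In 1063 assigned cells the class rests on 3 to 5 marker UMIs. The 2 libraries share 74 barcode sequences, 50 of which were kept in both.

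Erythroid-like cells, which should make none of these proteins, gave a reference level, but free RNA itself was not measured. All members were at or below 11.5 CPM in these cells in both libraries, and Igfbp2 had 0 UMIs in both. Fibroblast markers summed to 22.0 and 24.4 CPM in erythroid-like cells of the libraries labelled MKO/tdT and Het/tdT. In myogenic-like cells they summed to 53.5 and 33.4 CPM, so the erythroid-like level need not hold for other classes. At 2000 UMIs per cell, 0 of 53 erythroid-like cells in the library labelled MKO/tdT had an Igf1 UMI, which allows a share of up to 5.66% by a limit of 3 counts and 6.72% by the exact interval, and 1 of 59 had one in the library labelled Het/tdT.

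**Figure D1:**
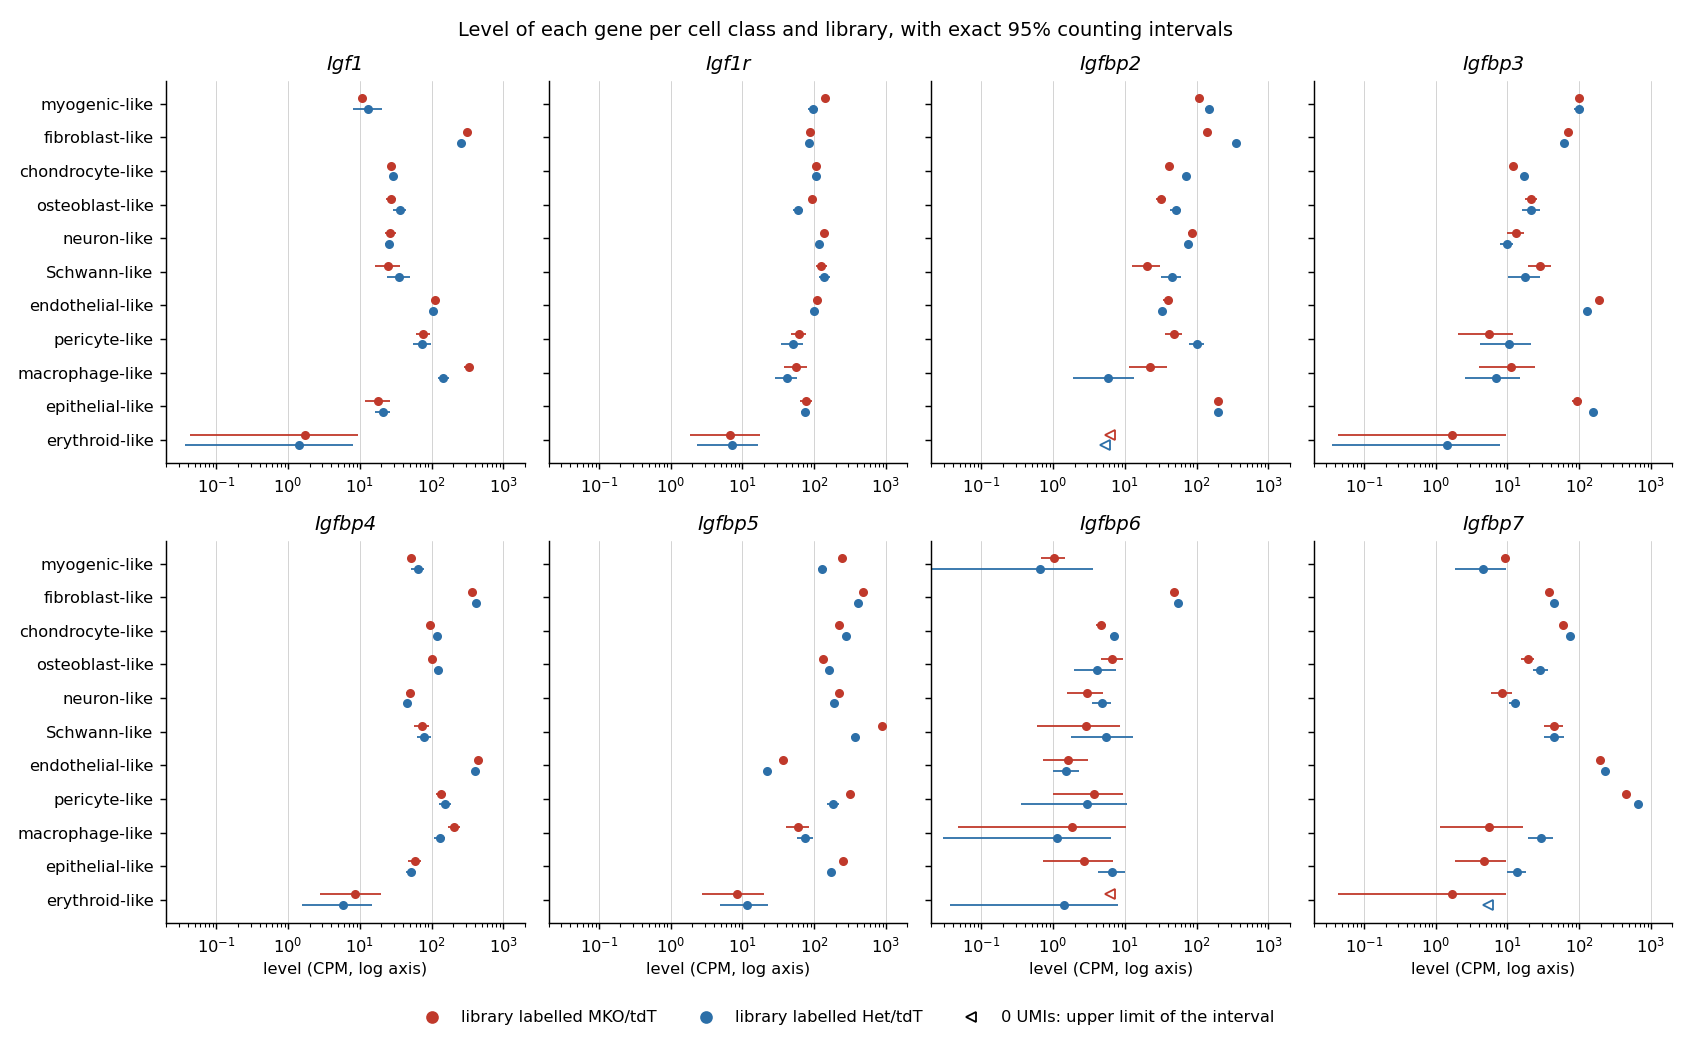
Level of each gene in CPM on a log axis for the 11 cell classes, with the library labelled MKO/tdT in red and the library labelled Het/tdT in blue. Points are levels, bars are exact 95% counting intervals, and open triangles mark the upper limit where there were 0 UMIs. Outside the erythroid-like class, Igf1 spreads from 10.9 CPM in myogenic-like to 330 CPM in macrophage-like cells of the library labelled MKO/tdT. Igf1r stays between 41.4 and 142 CPM in every class but the erythroid-like one.

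Igf1, the ligand gene, was highest in fibroblast-like and macrophage-like cells. Fibroblast-like cells had 308 CPM in the library labelled MKO/tdT and 254 CPM in the library labelled Het/tdT, and macrophage-like cells had 330 and 146 CPM. The ranges of these 2 classes overlap, and both lie above endothelial-like cells at 112 and 104 CPM and pericyte-like cells at 75.6 and 74.5 CPM. Myogenic-like cells were the lowest class apart from the erythroid-like one, at 10.9 CPM (95% interval 9.68 to 12.2) and 13.1 CPM (8.01 to 20.2). Chondrocyte-like, osteoblast-like, neuron-like, Schwann-like and epithelial-like cells lay between 18.1 and 35.8 CPM. Of all Igf1 UMIs, 59.9% and 41.2% came from fibroblast-like cells, which gave 24.2% and 16.5% of all UMIs.

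Igf1r, the receptor gene, was the most evenly spread of the members, with its highest class at 1.55 times the median class. Schwann-like cells were at 127 CPM in the library labelled MKO/tdT and 140 CPM in the library labelled Het/tdT, neuron-like cells at 139 and 117 CPM, and myogenic-like cells at 142 and 97.0 CPM. From these 3 classes down to chondrocyte-like and endothelial-like cells, no neighbours in the order were separated by their library ranges. Macrophage-like cells, at 55.6 and 41.4 CPM, were the lowest class apart from the erythroid-like one. Myogenic-like cells, the lowest of the 11 classes for Igf1 apart from the erythroid-like one, thus had the highest Igf1r level in the library labelled MKO/tdT, whereas in the library labelled Het/tdT 4 classes lay above them.

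Igfbp2, whose product can also bind integrins, was highest in fibroblast-like and epithelial-like cells. Its level was 141 CPM in fibroblast-like cells of the library labelled MKO/tdT and 352 CPM in those of the library labelled Het/tdT. Epithelial-like cells were at 202 and 197 CPM and myogenic-like cells at 106 and 149 CPM, and the fibroblast-like range spans the epithelial-like one. Unassigned cells, outside the order, had 129 and 218 CPM. They gave 31.1% and 36.0% of all Igfbp2 UMIs, against 24.1% and 24.7% of the UMIs of all genes.

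Igfbp3, which encodes the main carrier of IGFs in serum, had its highest levels in 3 classes. Endothelial-like cells had 187 CPM in the library labelled MKO/tdT and 128 CPM in the library labelled Het/tdT, epithelial-like cells 93.2 and 155 CPM, and myogenic-like cells 100.5 and 99.6 CPM. Their order differs between the libraries, and fibroblast-like cells followed, below all 3, at 69.6 and 60.7 CPM. Fibroblast-like cells gave 26.5% and 19.1% of all Igfbp3 UMIs, against 24.2% and 16.5% of the UMIs of all genes.

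Igfbp4, mainly an inhibitor of IGF action and a substrate of pappalysins, was shared by endothelial-like and fibroblast-like cells. Endothelial-like cells were at 441 and 399 CPM in the libraries labelled MKO/tdT and Het/tdT, and fibroblast-like cells at 366 and 414 CPM. These classes overlap, and both stand apart from macrophage-like cells at 204 and 130 CPM. At 2000 UMIs per cell, 56.6% and 51.3% of endothelial-like cells had an Igfbp4 UMI (95.5% in both before thinning, at median depths of 12032 and 15048 UMIs), against 1.89% and 1.69% of erythroid-like cells (median depths of 10308 and 11562 UMIs). Thinning to 2000 UMIs left out 609 cells of the library labelled MKO/tdT and 750 of the library labelled Het/tdT.

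Igfbp5, whose product binds extracellular matrix and acts in muscle and bone, had its highest mean over both libraries in Schwann-like cells, at 883 CPM in the library labelled MKO/tdT and 369 CPM in the library labelled Het/tdT. Fibroblast-like cells were at 478 and 410 CPM, inside that span and above Schwann-like cells in the library labelled Het/tdT. The few neural progenitor-like cells, outside the order, had 2579 and 1496 CPM. Unassigned cells, also outside it, had 537 and 503 CPM, above fibroblast-like cells in both libraries. They gave 36.0% and 42.3% of all Igfbp5 UMIs, against 24.1% and 24.7% of the UMIs of all genes. Endothelial-like cells had the lowest level apart from erythroid-like cells, at 36.8 and 22.3 CPM. In Schwann-like cells its neighbour on chromosome 1, Igfbp2, was at 20.2 and 45.1 CPM, below the median of its own classes at 56.7 CPM.

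Igfbp6, whose product prefers IGF-II, and Igfbp7, whose product binds IGFs weakly and is found around vessels, were the most restricted members. Igfbp6 was at 48.0 and 55.7 CPM in fibroblast-like cells, 8.85 times the mean of the next class, chondrocyte-like cells at 4.66 and 7.06 CPM. Outside the order, mast-like cells had 16.5 and 13.4 CPM and unassigned cells 18.5 and 27.8 CPM. Igfbp7 was at 454 and 669 CPM in pericyte-like cells, 2.63 times endothelial-like cells at 199 and 229 CPM, and at 60.3 and 75.4 CPM in chondrocyte-like cells. These were the only 2 of the 8 members whose highest class was the same in both libraries, and in both genes the highest class lay beyond the library range of the next. Across all members, the library ranges separated 35 of 80 pairs of classes that are adjacent in order.

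Over the 11 classes, the erythroid-like one included, the levels of each member on a log2(CPM + 10) scale had a Pearson r between libraries of 0.907 (Igfbp2) to 0.978 (Igfbp4), a description of 11 points that share markers, sorting and depth within a library.

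Next, the libraries were compared over all kept cells. A gene with at least 200 UMIs was counted as past the limit when its ratio reached 1.5-fold either way, which 18.8% of 14478 genes did. Of the 8 members 1 passed it, Igfbp7. Igfbp7 was at 47.1 CPM in the library labelled MKO/tdT and 81.3 CPM in the library labelled Het/tdT, 1.73-fold lower in the former (log2 ratio −0.79, 95% interval −0.83 to −0.74). Igfbp2 was at 99.8 and 150 CPM, a log2 ratio of −0.58 (−0.62 to −0.55) that lies just inside the limit. The other 6 members differed by less, with log2 ratios of 0.29 for Igf1, 0.21 for Igf1r, 0.28 for Igfbp3, −0.26 for Igfbp4, 0.29 for Igfbp5 and −0.12 for Igfbp6. The members' share past the limit was thus no higher than that of all genes.

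Since the libraries differ in their cells, with endothelial-like cells at 2.85% and 8.72%, the levels were also weighted to the same composition. At equal composition 6.23% of genes were past 1.5-fold, and 1 of the 8 members was, Igfbp2, while Igfbp7 was not. The log2 ratio of Igfbp2 went from −0.58 to −0.87, and that of Igfbp7 from −0.79 to −0.35. The call depends on the weights, because with equal weight for each assigned class Igfbp2 was at −0.08 and Igfbp5 was past the limit in its place, at 0.65. Equal weights include the neural progenitor-like class, which has only 7 and 11 cells in the libraries labelled MKO/tdT and Het/tdT. There Igfbp2 was at 425 and 140 CPM, from 16 and 12 UMIs, and Igfbp5 at 2579 and 1496 CPM. The part of this small class in the equal-weight values was not tested. Endothelial-like cells gave 15.6% of the Igfbp7 UMIs of the library labelled MKO/tdT and 37.4% of those of the library labelled Het/tdT. For Igf1, Igf1r, Igfbp3, Igfbp4, Igfbp5 and Igfbp6 the log2 ratios at equal composition were 0.18, 0.17, 0.21, −0.19, 0.14 and −0.34.

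**Figure D2:**
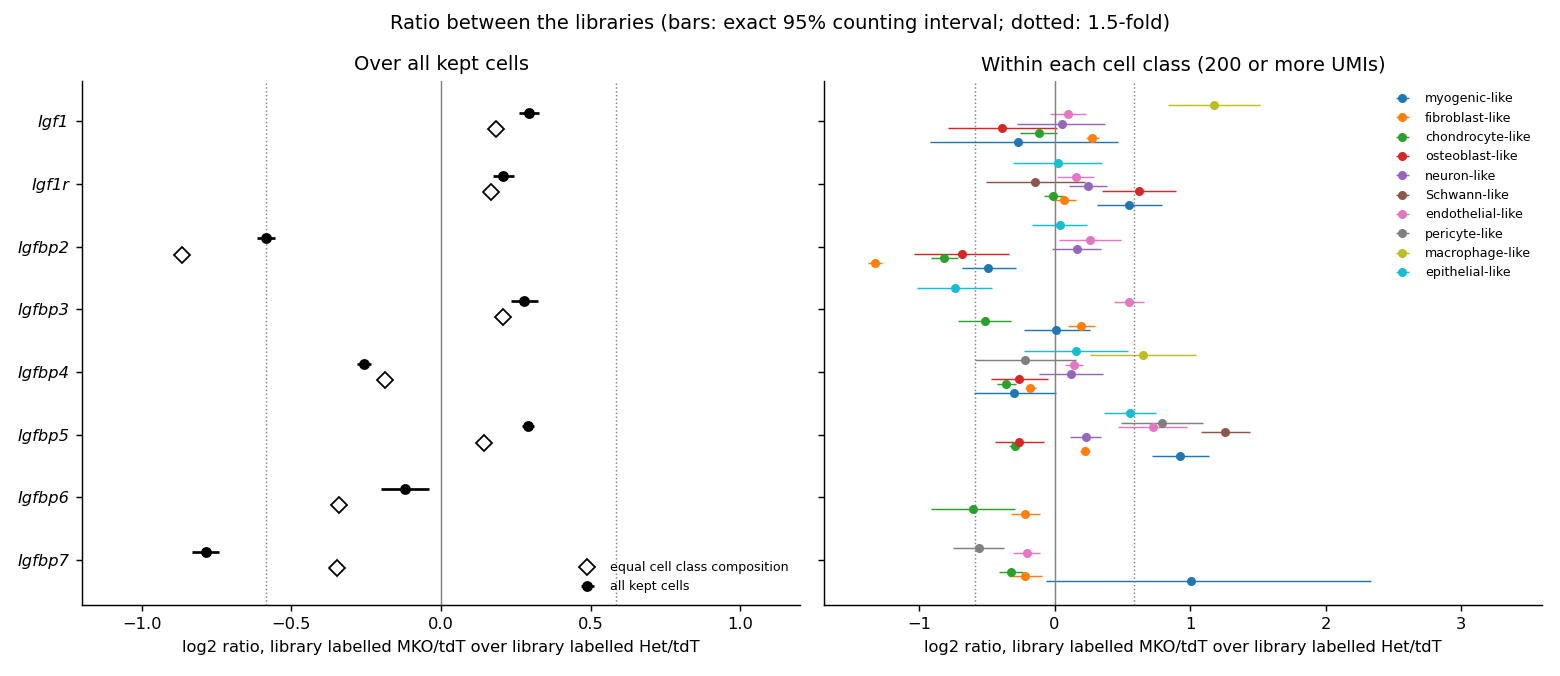
Left, log2 ratio of each gene between the libraries over all kept cells (filled, with the exact 95% counting interval) and at equal cell class composition (open diamonds). Right, the same ratio within each class in which the gene had at least 200 UMIs, with dotted lines at 1.5-fold. Igfbp2 in fibroblast-like cells lies farthest to the left, at −1.32, and Igfbp5 in Schwann-like cells farthest to the right, at 1.26.

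Within classes, 52 of 88 ratios had at least 200 UMIs, and 13 of these were past 1.5-fold, 8 higher and 5 lower in the library labelled MKO/tdT. The higher ones include Igfbp7 in myogenic-like cells, which met the 200 UMIs through the library labelled MKO/tdT (244 and 7 UMIs). Its interval spans 0. Fibroblast-like cells had 1 of 8 members past the limit (all genes: 5.15%), chondrocyte-like cells 2 of 8 (3.81%), osteoblast-like cells 2 of 5 (3.33%) and myogenic-like cells 2 of 7 (12.2%). Endothelial-like cells had 1 of 7 (3.23%), epithelial-like cells 1 of 5 (8.82%), pericyte-like cells 1 of 3 (4.91%), Schwann-like cells 1 of 2 (5.48%), macrophage-like cells 2 of 2 (11.5%) and neuron-like cells 0 of 5 (2.67%). Each share rests on 2 to 8 members.

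The receptor gene was past the limit in 1 of 8 classes and the ligand gene in 1 of 7. Igf1r was at 92.6 CPM in osteoblast-like cells of the library labelled MKO/tdT and 60.2 CPM in those of the library labelled Het/tdT (log2 ratio 0.62, 95% interval 0.35 to 0.90), but it was past the limit in 4 of 9 alternative settings and at 0.04 without cells with a cycling UMI. Igf1 in macrophage-like cells rested on 178 and 127 UMIs (log2 ratio 1.18, 0.84 to 1.52), and Igfbp4 in the same cells on 110 and 113 UMIs (0.65, 0.26 to 1.04). These macrophage-like cells also differed in the summed level of their own markers, at 6771 CPM in the library labelled MKO/tdT and 4704 CPM in the library labelled Het/tdT, and the part of this in both ratios was not tested.

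Igfbp2 was past the limit in 3 of 7 classes, all lower in the library labelled MKO/tdT. The level in fibroblast-like cells was 2.50-fold lower (log2 ratio −1.32, 95% interval −1.38 to −1.27), a size that 0.378% of the genes tested in these cells reached. It was 41.1 against 72.2 CPM in chondrocyte-like cells (−0.81, −0.91 to −0.71) and 31.6 against 50.8 CPM in osteoblast-like cells (−0.68, −1.03 to −0.33). Osteoblast-like cells without a cycling UMI were at 6.44 against 32.3 CPM, from only 8 and 27 UMIs (−2.32). Cycling osteoblast-like cells were at 54.3 against 60.9 CPM. In myogenic-like cells the log2 ratio of −0.49 (−0.68 to −0.29) was inside the limit. Endothelial-like, neuron-like and epithelial-like cells had log2 ratios of 0.26, 0.16 and 0.04. Under 200 UMIs and so not counted, Schwann-like cells (−1.16, −1.99 to −0.37) and pericyte-like cells (−1.06, −1.61 to −0.51) were also lower in the library labelled MKO/tdT. Macrophage-like cells, likewise not counted, were higher in that library (1.95, 0.34 to 3.81), from 12 and 5 UMIs. At 2000 UMIs per cell, 15.5% of 3415 fibroblast-like cells of the library labelled MKO/tdT and 33.6% of 1801 of the library labelled Het/tdT had an Igfbp2 UMI (37.4% and 60.2% before thinning, at median depths of 9702 and 9836 UMIs), against 0 of 53 and 0 of 59 erythroid-like cells.

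Igfbp5 was past the limit in 4 of 9 classes, all higher in the library labelled MKO/tdT. The log2 ratio was 1.26 in Schwann-like cells (95% interval 1.08 to 1.44), 0.93 in myogenic-like cells (0.72 to 1.14), 0.79 in pericyte-like cells (0.49 to 1.10) and 0.72 in endothelial-like cells (0.47 to 0.97). Without cells with a cycling UMI it turned to −0.15 in myogenic-like cells (16 cells left in the library labelled Het/tdT) and to −1.71 in endothelial-like cells (8 UMIs left in the library labelled MKO/tdT). Fibroblast-like cells had a log2 ratio of 0.22, and chondrocyte-like cells had −0.29. In Schwann-like cells chondrocyte markers, the next list after their own, summed to 289 and 216 CPM, and the part of other cells' RNA in the ratio was not tested.

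Of the remaining binding protein genes, Igfbp3 was lower in epithelial-like cells of the library labelled MKO/tdT (log2 ratio −0.74, 95% interval −1.02 to −0.46), Igfbp6 lower in chondrocyte-like cells (−0.60, −0.91 to −0.29) and Igfbp7 higher in myogenic-like cells. The last, 2.01-fold higher, rests on 244 and 7 UMIs, and its interval spans 0 (−0.06 to 2.33 on the log2 scale). The Igfbp6 ratio, from 146 and 216 UMIs, was past the limit in 3 of 9 alternative settings and ranged from −0.75 to −0.10. Igfbp3 in endothelial-like cells, at a log2 ratio of 0.55 (0.44 to 0.66), and Igfbp7 in pericyte-like cells, at −0.56 (−0.75 to −0.37), lay just inside the limit.

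Fibroblast-like cells were divided by subtype genes, each cell needing at least 2 UMIs and 3 times those of any other pair. Muscle connective tissue (Osr1, Meox2) took 138 and 87 cells, tendon (Tnmd, Scx) 322 and 179, fascia (Dpt, Clec3b) 346 and 55, and dermal fibroblasts (Twist2, Crabp1) 1110 and 647. Igf1 was highest in muscle connective tissue cells, at 602 CPM in the library labelled MKO/tdT and 462 CPM in the library labelled Het/tdT, and lowest in dermal cells, at 156 and 145 CPM. Tendon cells (326 and 375 CPM) and fascia cells (336 and 333 CPM) lay between and overlap each other. Igfbp6 was highest in muscle connective tissue cells, at 96.6 and 104 CPM, and in fascia cells, at 94.6 and 90.5 CPM, lower in both libraries but with overlapping counting intervals, and was lowest in dermal cells, at 14.4 and 20.3 CPM.

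The lower Igfbp2 level in the library labelled MKO/tdT was present in each fibroblast-like subtype. It was 4.30-fold lower in fascia cells (90.6 against 389 CPM), 3.38-fold lower in dermal cells (106 against 357 CPM), 2.02-fold lower in tendon cells (63.2 against 127 CPM) and 1.71-fold lower in muscle connective tissue cells (240 against 409 CPM). Of the 5 intervals, cells without a subtype included, the one closest to 0 was −0.98 to −0.56 on the log2 scale. Igfbp5 did not share this pattern. Its level was higher in the library labelled MKO/tdT in tendon (528 against 359 CPM), dermal (476 against 389 CPM) and muscle connective tissue cells (646 against 459 CPM), and lower in fascia cells (395 against 513 CPM).

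**Figure D3:**
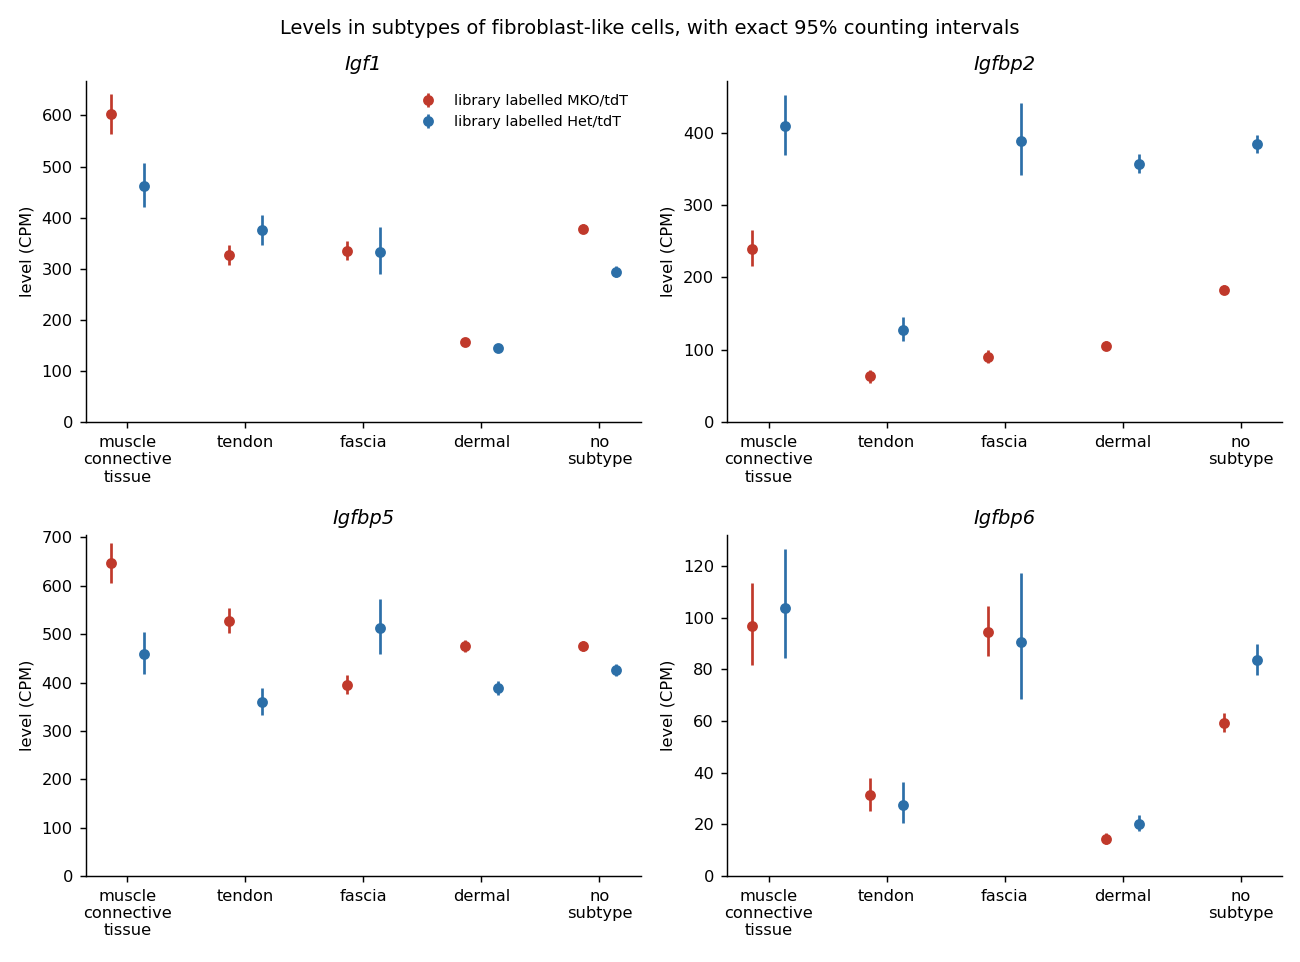
Levels in CPM of Igf1, Igfbp2, Igfbp5 and Igfbp6 in the subtypes of fibroblast-like cells, with the library labelled MKO/tdT in red, the library labelled Het/tdT in blue and exact 95% counting intervals as bars. Igf1 peaks in muscle connective tissue cells (602 and 462 CPM), and the red Igfbp2 points lie below the blue ones in all 5 sets of cells.

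Myogenic-like cells were divided into progenitors (Pax7, Myf5; 552 cells in the library labelled MKO/tdT and 23 in the library labelled Het/tdT) and differentiating cells (Myog, Mymk, Myh3; 939 and 56 cells). In the library labelled MKO/tdT, 31.3% of genes were past 1.5-fold between these subtypes, as were 3 of the 7 members with at least 200 UMIs. Igfbp5 was at 468 CPM in progenitors and 88.1 CPM in differentiating cells, 5.31-fold higher in progenitors (log2 ratio 2.41, 95% interval 2.31 to 2.50). Igfbp2 was 1.71-fold higher in progenitors (136 and 79.2 CPM), and Igfbp7 was 1.93-fold lower (6.17 and 11.9 CPM). Igf1r was at 151 and 136 CPM, and Igf1 at 9.54 and 12.4 CPM. The small library labelled Het/tdT gave 260 and 63.7 CPM for Igfbp5, from 108 and 58 UMIs, and 216 and 127 CPM for Igfbp2. Igf1r there was 2.09-fold higher in progenitors, at 154 and 73.5 CPM from 64 and 67 UMIs (log2 ratio 1.07, 0.55 to 1.58).

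Endothelial-like cells were divided by lymphatic genes (Prox1, Lyve1, Ccl21a) into 167 and 524 lymphatic cells and 136 and 223 cells without a lymphatic UMI, of 357 and 902 cells in the libraries labelled MKO/tdT and Het/tdT. Between these subtypes 20.6% of genes were past 1.5-fold in the library labelled MKO/tdT and 21.4% in the library labelled Het/tdT, as were 3 of 5 and 4 of 7 members with at least 200 UMIs. Igfbp3 was 14.4-fold lower in lymphatic cells of the library labelled MKO/tdT (24.4 against 352 CPM) and 6.48-fold lower in those of the library labelled Het/tdT (39.4 against 255 CPM). Igfbp7 was 4.57-fold and 3.61-fold lower in lymphatic cells. Igf1 went the other way, at 2.52-fold (160 against 63.4 CPM) and 1.88-fold (129 against 68.5 CPM) higher, and Igfbp4 was 1.32-fold and 1.49-fold higher. The cells without a lymphatic UMI gave 694 of 1052 Igfbp3 UMIs of this class in the library labelled MKO/tdT and 886 of 2086 in the library labelled Het/tdT, and among these cells the level was higher in the library labelled MKO/tdT. How far the share of lymphatic cells enters its ratio over the whole class was not tested.

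**Figure D4:**
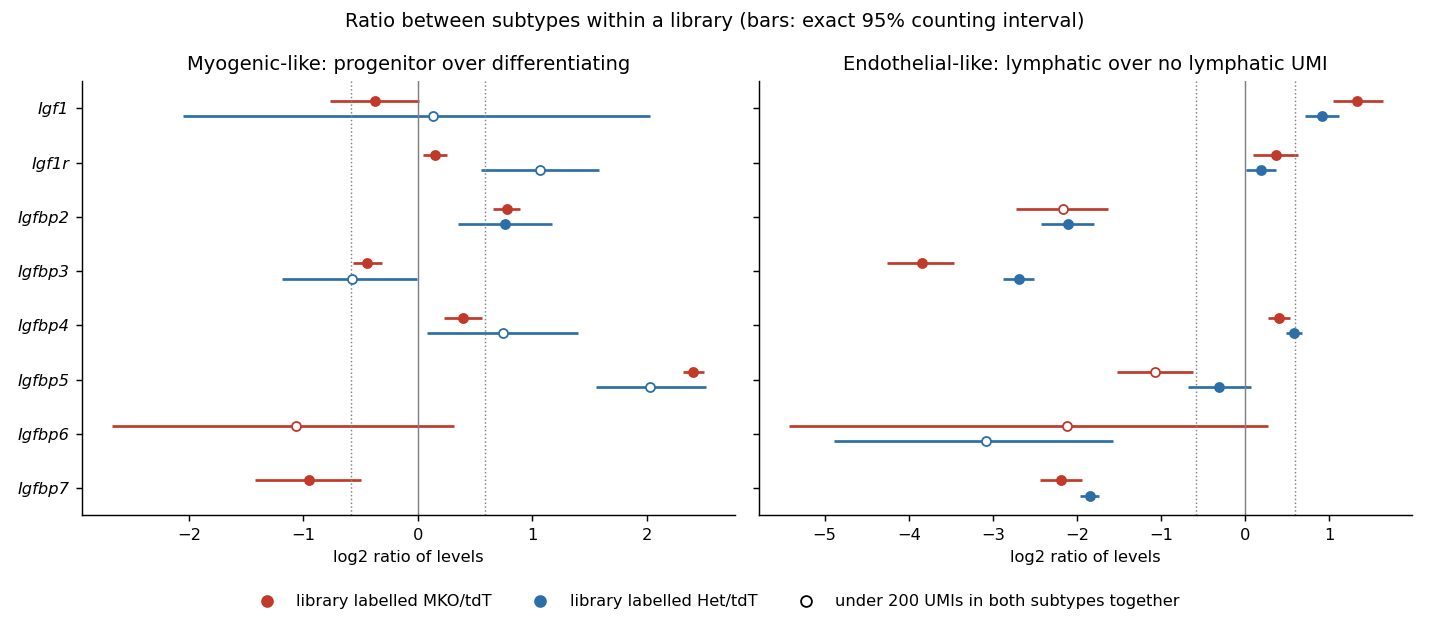
Log2 ratio of each gene between subtypes within a library, with exact 95% counting intervals. Left, progenitor over differentiating myogenic-like cells, and right, lymphatic cells over endothelial-like cells without a lymphatic UMI. Filled points had at least 200 UMIs and dotted lines mark 1.5-fold. Igfbp5 lies at 2.41 on the left in the library labelled MKO/tdT, and Igfbp3 at −3.85 and −2.70 on the right.

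Cycling cells, with at least 3 UMIs of Mki67, Top2a, Cenpf, Ccnb1, Cdk1 and Birc5, were set against cells of the same class without such a UMI. In fibroblast-like cells all 8 members were lower in cycling cells in both libraries, as were 48.6% and 48.1% of all genes tested in the libraries labelled MKO/tdT and Het/tdT. Past 1.5-fold were 3 of 8 members (all genes: 9.49%) and 4 of 8 (9.67%), and the median log2 ratio of the members was −0.50 and −0.52, that of all genes 0.01 in both. Cycling cells were deeper, at medians of 12550 and 14114 UMIs against 8240 and 8350, and the part of depth in this was not tested. The log2 ratio of Igfbp5 was −0.66 in the library labelled MKO/tdT and −0.80 in the library labelled Het/tdT, that of Igf1 −0.52 and −0.83, and that of Igf1r −0.24 and −0.28. In myogenic-like cells of the library labelled MKO/tdT the reverse was seen for Igfbp5, at 294 CPM in 1097 cycling cells and 96.3 CPM in 264 others. The library labelled Het/tdT had 58 and 16 such cells, at 155 and 107 CPM. These rest on 167 and 21 UMIs, under the limit of 200, and the interval of the log2 ratio spans 0 (−0.12 to 1.27). Igfbp2 was also higher in cycling myogenic-like cells, with log2 ratios of 0.66 and 0.75 in the libraries labelled MKO/tdT and Het/tdT. Igfbp5 was also higher in cycling osteoblast-like (0.59 and 0.39) and neuron-like cells (0.44 and 0.29). It was lower in cycling chondrocyte-like cells (−0.56 and −0.62), and mixed in endothelial-like cells (1.98, from 154 and 8 UMIs, and −0.84). For these classes the share of all genes is not given here.

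The genes whose levels over the 22 class-by-library values were most like a member were drawn from genes with at least 500 UMIs. For Igf1 these were Tnfsf12, Mylip and Cgas (Pearson r 0.897 to 0.906), and for Igf1r Zmynd11, Sfswap and Rnf20 (0.952 to 0.961). The patterns of Igfbp2 and Igfbp3 had the weakest partners, with Fgfr1op, Rnf217 and Zdbf2 at 0.863 to 0.870 and S100a16, Palmd and 4930522L14Rik at 0.850 to 0.893. For Igfbp4 they were Cmtm3, Ltbr and Klf2 (0.907 to 0.911), for Igfbp6 the fibroblast marker Dpt with Rspo1 and Wnt2 (0.949 to 0.960), and for Igfbp7 Ecm2, Gng11 and Sparcl1 (0.911 to 0.926). Among the members themselves, Igf1 and Igfbp4 were the pair most alike (r = 0.88). The neighbours Igfbp2 and Igfbp5 had an r of 0.63, and Igf1 and Igf1r one of 0.24. All of these values describe points that share libraries and marker-set classes.

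A list of 35 further genes of the pathway set these levels in context, 32 of which had at least 200 UMIs. Of these, 3 were past 1.5-fold higher and 4 lower in the library labelled MKO/tdT, 7 in all against 18.8% of all genes. At equal composition 3 of these genes were past it, against 6.23% of all genes. The median log2 ratio of the pathway genes was 0.06, that of all genes tested −0.02. The second ligand gene, Igf2, was at 769 CPM in the library labelled MKO/tdT and 770.0 CPM in the library labelled Het/tdT, and was highest in chondrocyte-like cells at 1195 and 1154 CPM. Igf2r, whose product clears IGF-II, was at 185 and 138 CPM. Igf1, by contrast with Igf2, had little in chondrocyte-like cells (26.9 and 29.2 CPM).

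Among proteases and their inhibitors, Pappa2, whose product cleaves Igfbp3 and Igfbp5 products, was 1.99-fold higher in the library labelled MKO/tdT (16.1 and 8.11 CPM). Stc1, listed with the inhibitors, whose product is a stanniocalcin, was 1.54-fold lower (21.0 and 32.4 CPM). The insulin receptor substrate genes Irs1 and Irs4 were 1.99-fold and 2.48-fold higher, the latter at only 1.96 and 0.789 CPM, and Irs1 was highest in myogenic-like cells at 34.5 and 31.5 CPM. Igfbpl1, Socs2 (a feedback inhibitor of growth hormone signalling) and Foxo1 (a transcription factor restrained by Akt) were 1.79-fold, 1.63-fold and 1.58-fold lower. Weighting to equal composition brought Igfbpl1 to a log2 ratio of 0.28, Socs2 to 0.02 and Foxo1 to −0.16 and Irs1 to 0.55, all inside the limit, as was Stc1, while Pappa2 (0.71) and Irs4 (1.31) stayed past the limit and Pappa passed it (−0.66). Grb10, an adaptor that dampens receptor signalling, was at 391 and 293 CPM, and Rheb, the activator of mTOR, at 178 and 225 CPM, both inside the limit.

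**Figure D5:**
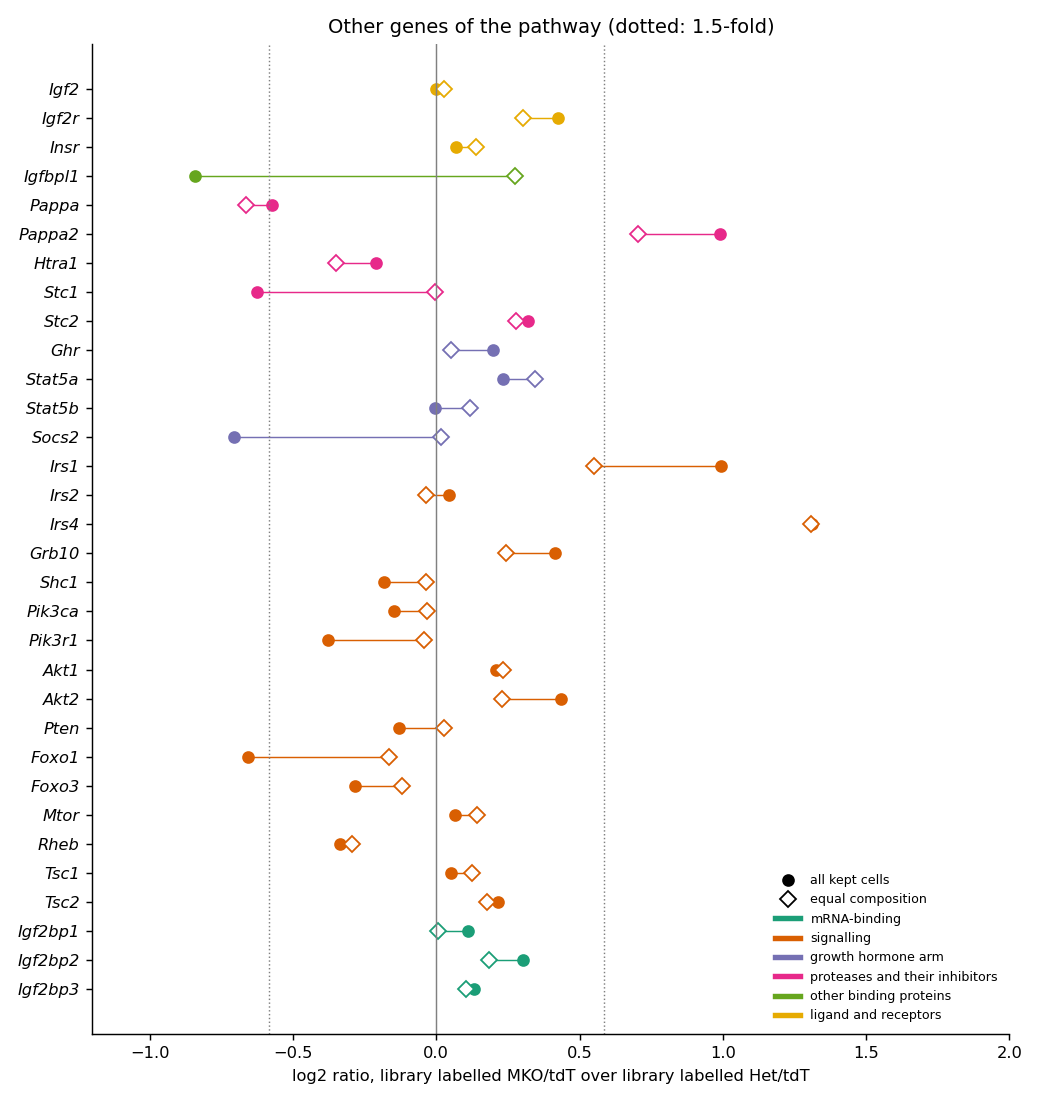
Log2 ratio between the libraries of the 32 other pathway genes with at least 200 UMIs, over all kept cells (filled) and at equal composition (open diamonds), coloured by role, with dotted lines at 1.5-fold. Irs4 stays at 1.31 in both, while Igfbpl1 moves from −0.84 to 0.28.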

How the data were processed

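The deposited table holds raw UMI counts of 32285 genes in 27766 barcodes. The authors made it with Cell Ranger on mm10, aggregating both libraries after down-sampling reads (5.0.0 per the file headers; the submitters' processing notes list 3.1.0, with STAR and Seurat 3.1.1). The barcode suffix was tied to a library by the number of cells in the run summary deposited with each sample. Genotypes follow the sample titles, which the name of that summary and the study's account of the myogenic share contradict. Tables hold 0 further columns of samples.

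A barcode entered the analysis if its UMI number and its gene number, both on a log10 scale, lay no more than 2 SD from the average of its library and mitochondrial UMIs did not exceed 10% (122938843 and 151555303 UMIs kept in the libraries labelled Het/tdT and MKO/tdT). No doublet caller was run. Cells with UMIs of several marker lists stayed unassigned only where the highest list missed the limits above. Assigned cells can hold UMIs of other lists, with the highest medians (37 and 33.5) in osteoblast-like cells of the libraries labelled MKO/tdT and Het/tdT. Levels have exact Poisson intervals, shares exact Clopper-Pearson intervals, and ratios exact intervals from the binomial split of the counts. The ratio intervals were run on simulated Poisson counts, the model they assume. Such counts hold no spread between cells or libraries, so the run does not check the intervals against that spread. UMIs of 3' ends were not scaled by length. Equal composition weights each class by its UMIs in both libraries together. Members were named in full, pathway genes where they passed 1.5-fold or lay above the median member, and 3 genes per member by likeness (those for Igfbp5 are not reported here). The members and lists were chosen with earlier results of these data known. Python 3.11.15, NumPy 2.4.6, SciPy 1.17.1, pandas 2.3.3 and matplotlib 3.10.9 were used.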

Additional observations from a re-analysis of the deposited data

How the results depend on the processing

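Over all kept cells 1 member was past 1.5-fold, and 2 were, Igfbp2 joining Igfbp7, with a mitochondrial limit of 5%, with the mean over cells, with each cell thinned to 2000 UMIs, and, an alternative chosen after seeing the data, without the barcode sequences that both libraries share. The log2 ratio of Igfbp2 ranged from −0.68 to −0.56. At equal composition with equal weight for each assigned class it was −0.08, Igfbp5 passed in its place at 0.65, and Igfbp4 turned to 0.05; mast-like and neural progenitor-like classes of 7 to 287 cells then weigh as much as the others. Of the 13 ratios within classes past the limit, 11 kept their direction and 7 stayed past it under every alternative that gave a ratio (8 for Igfbp7 in myogenic-like cells, 9 for the others), while 9 others passed under at least 1. Igfbp7 in myogenic-like cells is counted among the 7, although it rests on 244 and 7 UMIs and its interval spans 0 (−0.06 to 2.33). Leaving out cells with a cycling UMI, also chosen after seeing the data, turned Igfbp5 to −0.15 in myogenic-like cells (16 cells left in the library labelled Het/tdT) and to −1.71 in endothelial-like cells (8 UMIs left in the library labelled MKO/tdT), and gave no ratio for Igfbp7 in myogenic-like cells. The cause was not tested. Igf1r in osteoblast-like cells fell to 0.04 there and Igfbp6 in chondrocyte-like cells to −0.10 after thinning, whereas Igfbp2 in fibroblast-like cells ranged from −1.56 to −1.02. The highest class of Igf1r changed to myogenic-like or neuron-like, and that of Igfbp4 to fibroblast-like, under 1 or 2 of 8 alternatives.

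No paired analysis was possible because each genotype has 1 library, which also means that no replicate was left out in turn. Genotype, litter, sort and library cannot be told apart, and fewer cells of a class and less RNA per cell move the overall levels alike.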
